A study of Rattus norvegicus with 12 samples.

Results

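The second cohort of C6 glioma xenografts comprised 6 tumors, 3 from mice treated with MNF and 3 from mice treated with vehicle, out of 12 tumors in 2 cohorts. They were chosen by their labels, which give cohort 2 and replicate numbers 4 to 6 in each treatment group. C6 is a glioma cell line of the rat. The cells were inoculated under the skin of the left flank of athymic female nude mice (SWISS nu+/nu+), animals that lack a thymus and hence mature T cells. Treated mice received MNF, a methoxynaphthyl derivative of the bronchodilator fenoterol, by intraperitoneal injection at 2 mg/kg. Control mice received the vehicle, which the labels give as 100 µM ascorbic acid in saline and a figure legend of the study gives as citrate. Injections began 3 days after inoculation and continued for 19 days according to the labels, and the same legend gives a different duration. Mice could be killed earlier if tumors grew too large or health declined, so tumors were not necessarily of the same age. Each array measured RNA from a whole tumor with probes designed for the rat, so host cells are represented only as far as mouse RNA binds rat probes, and fewer cells of a type cannot be told apart from less RNA per cell. All tumors grew from 1 cell line, and the study describes the 3 tumors of a group as coming from separate mice.

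Fenoterol and its derivatives activate beta-adrenergic receptors, which raise cyclic AMP in the cell, and MNF has also been linked to cannabinoid receptors. Both are G protein-coupled receptors. Growing gliomas depend on the cell division cycle, in which cyclins and their kinases drive DNA replication and then mitosis. Secretory load is handled in the endoplasmic reticulum (ER), where chaperones fold new proteins and rise together when unfolded protein accumulates. The question put to these tumors was which transcripts MNF alters in the growing glioma.

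Genes used as markers of C6 cells were looked at first, though their detection cannot show the species or cell type that the RNA came from. Vimentin (Vim), nestin (Nes), the glial calcium-binding protein S100b and the progenitor factor Sox2 were detected on all 6 arrays, and Gfap has no named probe here. The deposited signal of Vim was between 27192 and 37365, and that of S100b between 2508 and 6750. Of 22517 probes, 8849 to 9562 were detected per array (detection p under 0.02), and 8090 were detected on all 6. Levels below are log2 signals of these probes, with each array set to the same mean and spread. With 1 probe per gene, 8028 were tested, of which 5789 are named genes and 2239 are unnamed probes. The number of arrays limits the precision, and an exact permutation test of 3 against 3 tumors cannot give a p below 0.1.

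With all 6 tumors the spread within the vehicle group was larger than within the MNF group. The median SD of a gene was 0.186 among vehicle tumors and 0.137 among MNF tumors, and 64.7% of the genes had the larger SD in the vehicle group. This share was 48.4% without vehicle tumor 6 and 43.1% without normalization. Vehicle tumor 6 lay close to the MNF tumors. Over all genes it correlated with them at a mean r of 0.987, against 0.968 with the other vehicle tumors, and 49.1% of its genes lay within the range of the 3 MNF tumors. For vehicle tumors 4 and 5 these shares were 32.1% and 37.1%. Whether the label or the treatment of vehicle tumor 6 is right cannot be told from the files. Vehicle tumor 4 stood apart in another way, as it held almost no skeletal muscle RNA. Acta1, the actin of muscle fibers, was at 8.03 in vehicle 4, 15.05 in vehicle 5 and 14.64 in vehicle 6. In MNF tumors 4, 5 and 6 it was at 15.11, 15.54 and 14.44, so vehicle 4 lay far below every other tumor. Of 22 muscle markers with a probe, 6 were detected in vehicle 4 and 15 to 17 in each of the other tumors. Their summed signal was 7504 to 74030 in the vehicle group and 63241 to 177763 in the MNF group, and Actn3, Mb, Myh4 and Tnni1 were detected in no tumor.

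**Figure D1:**
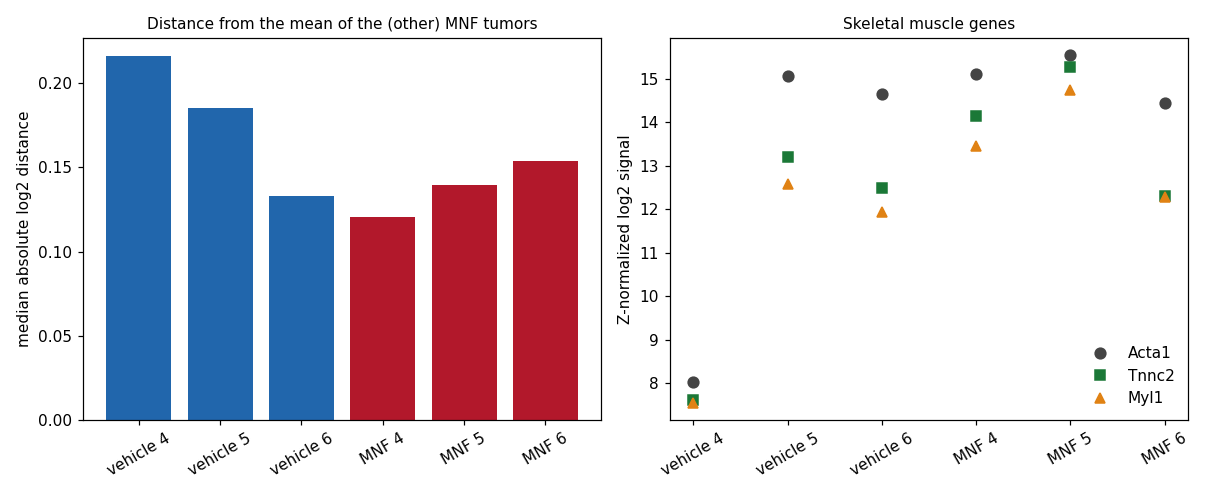
Left, the median absolute log2 distance over all genes of each vehicle tumor (blue) from the mean of the 3 MNF tumors and of each MNF tumor (red) from the mean of the other MNF tumors. Right, Z-normalized log2 signal of 3 muscle genes in each tumor. Vehicle 6, at 0.133, lay as near to the MNF mean as the MNF tumors lay to each other (0.120 to 0.154), and vehicle 4 had muscle genes at 8.03 or lower.

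No gene passed an adjusted p of 0.05 between MNF and vehicle tumors (limma with Benjamini-Hochberg adjustment, smallest adjusted p = 0.598). With limma in place of the study's own test, 0 passed the thresholds of its methods in this cohort (726 did when arrays were weighted by quality). Before adjustment, 664 of 8028 genes (8.27%) had a p under 0.05. Of these, 305 (3.8%) were higher and 359 (4.47%) were lower with MNF. All 3 MNF tumors lay above all 3 vehicle tumors for 493 genes (6.14%) and below them for 577 (7.19%). The absence of adjusted calls rested on vehicle tumor 6. Without it, 147 genes passed, 83 of them higher and 64 lower with MNF, and the smallest adjusted p was 0.00192. Leaving out any other tumor gave 0. At an unadjusted p under 0.05, 797 of the 8054 genes tested without vehicle 6 were higher and 856 lower. Because vehicle 6 stands out on the measured levels themselves, the values without it are given as a description of what this tumor does to the comparison, and all values that follow use the 6 tumors unless stated.

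The 12 named genes higher with MNF that had the smallest p were of varied function. Gstk1, a glutathione transferase of mitochondria and peroxisomes, was at 9.04, 9.13 and 9.28 in MNF tumors 4, 5 and 6 and at 8.33, 8.003 and 8.33 in vehicle tumors 4, 5 and 6. Every MNF tumor lay above every vehicle tumor, and the difference was 0.93 ± 0.14 (log2, SE, n = 3 per group), or 1.90-fold, with an adjusted p of 0.598 in limma. Mt3, a zinc-binding metallothionein of the brain, was at 10.77, 10.96 and 11.05 with MNF and at 9.88, 9.39 and 10.25 with vehicle, a difference of 1.09 ± 0.21. Fxyd1 encodes a regulator of the sodium pump. It was at 9.74, 9.78 and 9.61 with MNF and at 8.03, 8.40 and 9.07 with vehicle, and again the groups did not overlap. Ifitm3, an interferon-induced membrane protein that hinders virus entry, had the largest difference of these 12 genes, at 1.58 ± 0.36. It was nearly level in the MNF tumors, at 12.50, 12.53 and 12.47, and spread over 9.96 to 11.67 in the vehicle tumors. The rest of the 12 were Creld2, Tmem9b, Cnih1, Dnajc7, Camk1g, Fam111a, Pdpn and Eprs1, with differences of 0.46 to 0.82 and with groups that did not overlap. Pdpn encodes podoplanin, a mucin-like surface protein, and Cnih1 a receptor that loads cargo for export from the ER.

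The 12 named genes on the lower side were likewise of varied function. Galnt3, an enzyme that attaches the first sugar in mucin-type O-glycosylation, was at 9.84, 9.97 and 9.96 in MNF tumors 4, 5 and 6 and at 10.60, 10.82 and 10.59 in vehicle tumors 4, 5 and 6. Vehicle 6 lay with the other vehicle tumors for this gene. The difference was -0.75 ± 0.12, with an adjusted p of 0.600. Nppb, the precursor of B-type natriuretic peptide, differed most, by -2.17 ± 0.50. It was at 8.36, 8.31 and 7.83 with MNF and at 10.97, 11.10 and 8.95 with vehicle, so that vehicle 6 lay between the other vehicle tumors and the MNF group. F3, tissue factor, which starts blood coagulation, differed by -1.11 ± 0.26. Follistatin (Fst), which binds activins, differed by -0.76 ± 0.16, and Ltbp1, which holds latent TGF-beta in the matrix, by -0.73 ± 0.15. Dnmt1, the enzyme that copies DNA methylation after replication, was at 10.87, 10.85 and 10.80 with MNF and at 11.59, 11.58 and 11.16 with vehicle. H2ax, a histone variant that marks DNA breaks when phosphorylated, differed by -0.69 ± 0.17. Dpy30, Hist1h2bd, Nop58, Jun and Rab27b completed the 12, with differences between -0.59 and -0.45, and none of the 12 overlapped between groups. On both sides the 12 were picked for a small p in these tumors, which favors separate groups, so the separation is no further evidence.

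**Figure D2:**
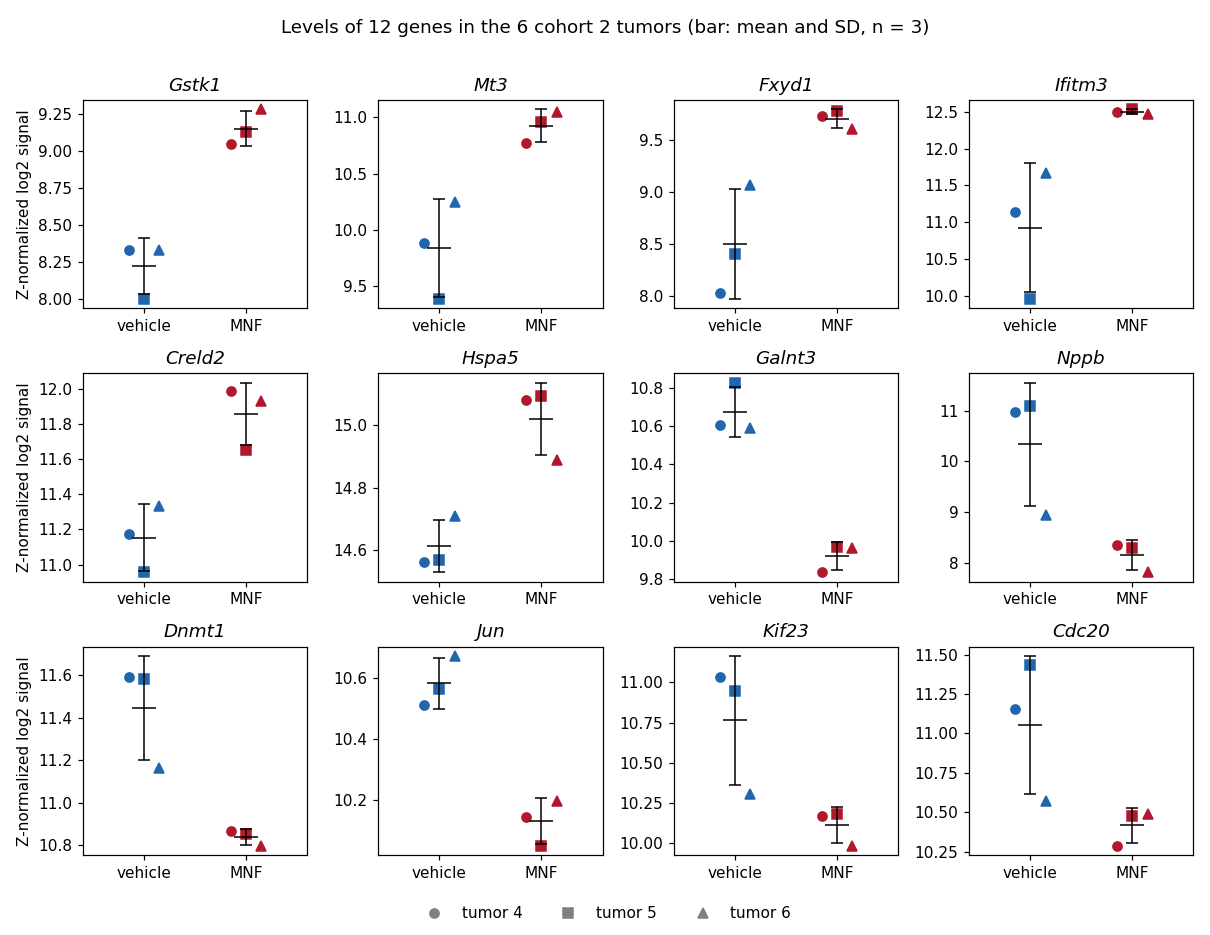
Z-normalized log2 signal of 12 genes in vehicle tumors (blue) and MNF tumors (red), with a point for each tumor and a bar for the mean and SD (n = 3). The groups do not overlap for any of the 12, which come from genes named for a small p. Vehicle 6 (triangle) is the vehicle tumor nearest to the MNF tumors for all of them but Gstk1 and Jun.

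Genes of mitosis were lower with MNF as a group. Of 71 listed, 45 have a named probe and 39 were tested, and 37 of the 39 were lower with MNF against 51.9% of all genes. Their median log2 difference was -0.29, beside -0.01 over all genes. At an unadjusted p under 0.05, 10 were lower and 0 were higher, against 4.47% and 3.8% of all genes. For 6 (15.4%) all MNF tumors lay below all vehicle tumors, against 7.19% of all genes. Kif23, a kinesin of the cytokinetic midzone, was at 10.17, 10.18 and 9.98 in MNF tumors 4, 5 and 6 and at 11.04, 10.95 and 10.30 in vehicle tumors 4, 5 and 6. Cdc20, the activator of the anaphase-promoting complex, was at 10.29, 10.48 and 10.49 with MNF and at 11.15, 11.43 and 10.57 with vehicle. In both genes vehicle 6 was the lowest vehicle tumor and lay just above the highest MNF tumor. The difference was -0.65 ± 0.20 for Kif23 and -0.64 ± 0.21 for Cdc20. Nusap1, which binds spindle microtubules, differed by -0.58 ± 0.18, and the checkpoint kinase Bub1b by -0.38 with a p of 0.0342 before adjustment in limma. For Kif20a, another kinesin of cytokinesis, the groups overlapped, since vehicle 6 (10.44) lay below MNF 4 (10.50).

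The mean level of the mitosis list shows the same pattern of tumors. It was 9.37, 9.44 and 9.53 in MNF tumors 4, 5 and 6, and 9.99, 9.94 and 9.38 in vehicle tumors 4, 5 and 6. Vehicle 6 thus lay among the MNF tumors, and vehicle 4 and 5 lay above all of them. Without vehicle 6, 39 of 39 genes were lower, with a median of -0.46. In limma 30 of them had an unadjusted p under 0.05 and 11 an adjusted p under 0.05. Over all 8054 genes tested without vehicle 6, 856 were lower at that unadjusted threshold and 64 at the adjusted one. With any other tumor left out, 35 to 38 of the 39 were lower and 2 to 5 had an unadjusted p under 0.05. Over all genes, 180 to 290 were lower at that threshold in these fits.

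Genes of DNA replication, and cyclins with their kinases, were also mostly lower with MNF. Of 60 replication genes, 51 have a named probe and 47 were tested. Of these, 43 were lower, 9 of them at an unadjusted p under 0.05, against 51.9% and 4.47% of all genes, and the median was -0.24. Gins1, a subunit of the replicative helicase, was at 9.28, 9.01 and 9.40 with MNF and at 9.85, 9.74 and 9.52 with vehicle. Rfc4, part of the clamp loader, differed by -0.54 ± 0.18, and Pole2, a DNA polymerase subunit, by -0.45 ± 0.17. Orc4, of the origin recognition complex, differed by -0.45 ± 0.17, and all 4 genes were separated between groups. The replication list as a whole lay at 9.31, 9.26 and 9.39 with MNF and at 9.73, 9.67 and 9.26 with vehicle, so vehicle 6 again lay with the MNF tumors. Its count at an unadjusted p under 0.05 was 28 of 47 without vehicle 6, and 1 to 6 with any other tumor left out. Over all genes, 856 of 8054 were lower at that threshold without vehicle 6, and 180 to 290 with any other tumor left out. Of 50 cyclins, CDKs and cell cycle regulators, 42 have a named probe and 31 were tested. Of these 25 were lower, 5 at an unadjusted p under 0.05 (against 4.47% of all genes) and none higher at that threshold, and the median was -0.16. Without vehicle 6, 12 of the 31 were lower at such a p, and with any other tumor left out 2 or 3 were. Cks1b, a CDK-binding subunit, was at 10.74, 10.79 and 10.91 with MNF and at 11.26, 11.39 and 11.07 with vehicle. Cdkn3, a phosphatase that acts on CDKs, differed by -0.48 ± 0.15, and cyclin A (Ccna2) by -0.53 ± 0.19 with overlapping groups. Cyclin D (Ccnd1) differed by 0.16 ± 0.15 in the other direction and overlapped.

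**Figure D3:**
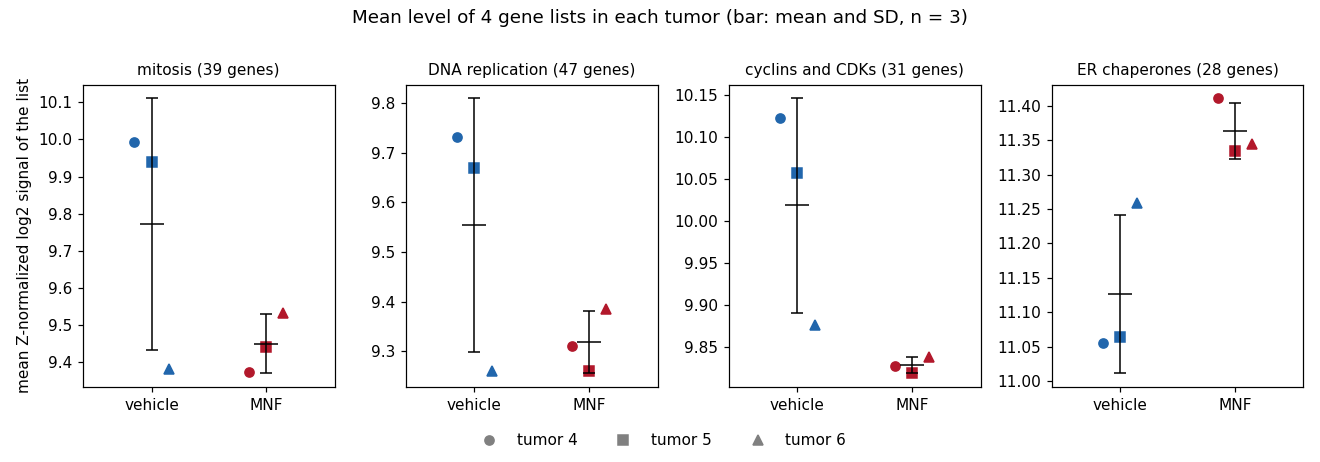
Mean Z-normalized log2 signal of the tested genes of 4 lists in each tumor, for vehicle (blue) and MNF (red), with the mean and SD over tumors (n = 3). In the mitosis and replication lists vehicle 6 (triangle) lies at the level of the MNF tumors, at 9.38 and 9.26, and in the ER chaperone list all 3 MNF tumors lie above all vehicle tumors.

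Promoters of the mitosis genes were examined because many genes of this phase share a CHR element (TTTGAA) and CCAAT boxes. Of the 39 tested genes, 32 have a promoter window in RefSeq (GRCr8, 250 bases before to 50 after the start). On either strand, TTTGAA stood in 22 of the 32 (68.8%), against 11.6% of 4922 tested genes with a window and 19.4% of all 27457. CCAAT stood in 23 (71.9%), against 39.8% of tested genes. In the replication list TTTGAA stood in 7 of 40 (17.5%) and CCAAT in 21 (52.5%). Both motifs were also found in other lists, as TTTGAA stood in 9 of 21 cyclin genes (42.9%) and CCAAT in 19 of 24 ER genes (79.2%). The 160 bases before the start are shown for the 3 mitosis genes with the smallest p that hold both motifs there, with the motifs in capitals. They lie at chr8:71320585-71320744 (minus strand) for Kif23, chr5:137255800-137255959 (minus strand) for Cdc20 and chr2:111966627-111966786 (minus strand) for Ect2, a regulator of cytokinesis. In Kif23 the CCAAT box is on the opposite strand and reads ATTGG.
Kif23: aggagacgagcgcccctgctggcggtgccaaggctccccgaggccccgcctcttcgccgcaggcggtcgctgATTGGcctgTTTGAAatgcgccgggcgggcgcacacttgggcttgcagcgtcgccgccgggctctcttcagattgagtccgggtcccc
Cdc20: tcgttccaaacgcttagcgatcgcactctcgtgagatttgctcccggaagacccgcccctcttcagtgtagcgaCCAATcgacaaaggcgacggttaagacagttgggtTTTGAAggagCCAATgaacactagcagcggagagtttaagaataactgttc
Ect2: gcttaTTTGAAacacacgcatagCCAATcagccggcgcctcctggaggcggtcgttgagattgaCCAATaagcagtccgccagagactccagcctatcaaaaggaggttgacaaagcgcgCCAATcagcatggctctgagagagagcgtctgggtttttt

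Chaperones and quality control proteins of the ER were higher with MNF. Of 41 listed, 32 have a named probe and 28 were tested, and 23 were higher against 48.1% of all genes, with a median of 0.23. At an unadjusted p under 0.05, 8 were higher and 0 lower, against 3.8% and 4.47% of all genes. The groups did not overlap for 7, against 6.14% of all genes. Creld2, an ER protein induced by unfolded protein, was at 11.99, 11.65 and 11.93 in MNF tumors 4, 5 and 6 and at 11.17, 10.96 and 11.33 in vehicle tumors 4, 5 and 6, a difference of 0.70 ± 0.15. Hspa5, the main ER chaperone (BiP), was at 15.08, 15.10 and 14.89 with MNF and at 14.56, 14.57 and 14.71 with vehicle, a difference of 0.41 ± 0.12. Vehicle 6 was the highest vehicle tumor in both genes, below all MNF tumors. Pdia4, which forms disulfide bonds, differed by 0.63 ± 0.19, and Os9, which sorts misfolded glycoproteins for degradation, by 0.49 ± 0.16 with overlapping groups. Manf, Dnajc3, Dnajb9 and Selenok, the remaining 4 of the 8, differed by 0.30 to 0.59. The list as a whole was at 11.41, 11.33 and 11.34 with MNF and at 11.05, 11.06 and 11.26 with vehicle. The number of the 28 genes that were higher stayed between 22 and 25 whichever tumor was left out. The number with an unadjusted p under 0.05 was 11 without vehicle 6 and 4 or 5 without any 1 of the other tumors. Over all genes, 797 of 8054 were higher at that threshold without vehicle 6, and 166 to 238 with any other tumor left out.

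The ER stress response element, CCAAT and CCACG with a spacer of 9 bases of any kind, was searched on both strands in the same promoter windows because it joins a CCAAT box to the site of the ER stress factor ATF6. It stood in 6 of the 24 ER genes with a window (25%), which were Hspa5, Creld2, Dnajc3, Xbp1, Calr and Canx. Among all tested genes with a window it stood in 11 of 4922 (0.223%). Of the 6 genes, Creld2, Hspa5 and Dnajc3 had an unadjusted p under 0.05, and Canx had a difference of -0.02. The 160 bases before the start are shown for those 3, the members with the smallest p, with the element in capitals. They lie on the plus strand of GRCr8 at chr7:121789224-121789383 for Creld2, chr3:38452856-38453015 for Hspa5 and chr15:102432507-102432666 for Dnajc3. In Creld2 the element is on the opposite strand.
Creld2: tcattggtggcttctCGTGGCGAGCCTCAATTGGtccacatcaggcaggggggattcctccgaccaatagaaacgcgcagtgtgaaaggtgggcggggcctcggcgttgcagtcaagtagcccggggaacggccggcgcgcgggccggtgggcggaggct
Hspa5: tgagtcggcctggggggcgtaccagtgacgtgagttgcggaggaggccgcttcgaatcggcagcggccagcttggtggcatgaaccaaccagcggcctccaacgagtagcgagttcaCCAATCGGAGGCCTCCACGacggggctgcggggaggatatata
Dnajc3: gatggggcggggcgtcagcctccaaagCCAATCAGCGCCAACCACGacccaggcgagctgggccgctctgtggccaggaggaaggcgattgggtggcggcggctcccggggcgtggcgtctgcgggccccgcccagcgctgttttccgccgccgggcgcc

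**Figure D4:**
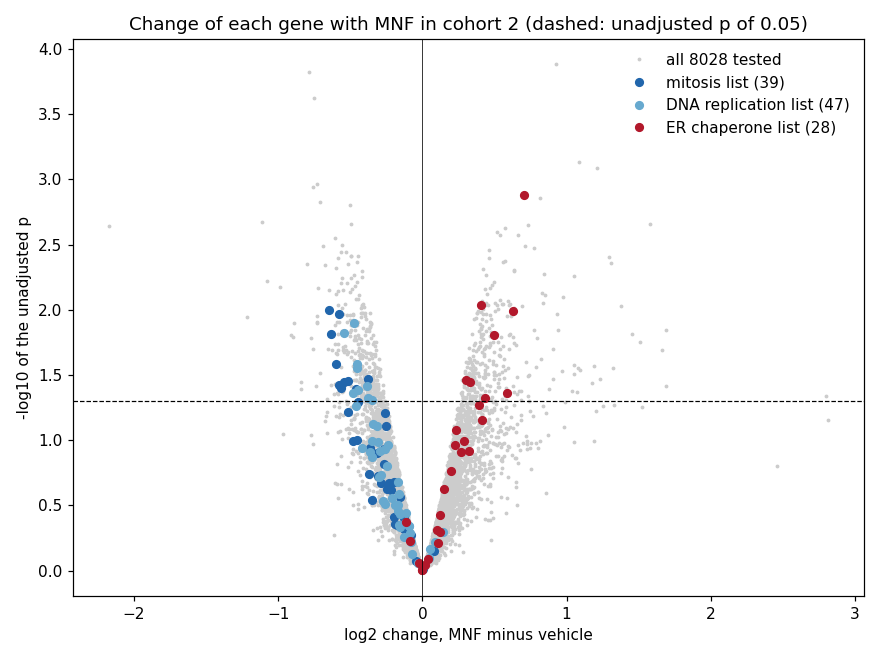
Log2 difference between MNF and vehicle tumors (horizontal axis) and -log10 of the unadjusted p (vertical axis) for 8028 genes (gray), with the mitosis (39), DNA replication (47) and ER chaperone (28) lists in color and a dashed line at a p of 0.05. Nearly all mitosis and replication genes lie to the left of 0, and 23 of the 28 ER genes lie to the right.

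For the targets of ATF4, the factor of the integrated stress response, the difference depended on which vehicle tumors were included. Of 30 tested, 20 were higher and the median was 0.03. At an unadjusted p under 0.05, 2 (6.67%) were higher, against 3.8% of all genes. The mean level of the list was highest in vehicle 4, at 10.21, and was 9.91 to 10.00 with MNF and 9.73 and 9.78 in the other vehicle tumors. Without vehicle 4, 24 of 30 were higher, 8 at an unadjusted p under 0.05, with a median of 0.21. Over all 8222 genes tested without vehicle 4, 4070 were higher, 202 of them at that threshold. Without vehicle 6, 18 of the 30 were lower, with a median of -0.08. Atf5, a factor of this response, was at 10.58, 10.40 and 10.45 with MNF and at 9.76, 9.73 and 10.27 with vehicle. Eprs1, a tRNA synthetase, differed by 0.46 ± 0.11. Of the chaperones of the cytosol and mitochondria, 20 of 28 were lower with a median of -0.11, and 1 in each direction had an unadjusted p under 0.05, near the shares over all genes. Hspe1, the mitochondrial co-chaperonin, was the lower one at -0.42 ± 0.12, and Dnajb6 the higher one at 0.41 ± 0.17. Without vehicle 6, 7 of the 28 were lower at that threshold, beside 856 of 8054 over all genes.

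Lysosomal genes and antioxidant enzymes had medians near 0. Of 42 lysosomal genes tested, 30 were higher, with a median of 0.09, and 5 were higher and 2 lower at an unadjusted p under 0.05, against 3.8% and 4.47% of all genes. The count of 5 was 0 without vehicle 4, 1 without MNF 4 or MNF 5, 2 without vehicle 5, 4 without MNF 6 and 10 without vehicle 6. Over all genes, the number higher at that threshold was 305 with all 6 tumors, 202 without vehicle 4 and 166 without MNF 4. It was 238 without MNF 5, 190 without vehicle 5, 214 without MNF 6 and 797 of 8054 without vehicle 6. Psap, the precursor of the saposins, which assist lipid breakdown, was at 11.24, 11.27 and 11.19 with MNF and at 10.53, 10.53 and 11.16 with vehicle. Cathepsin D (Ctsd) differed by 0.35 and the subunit Hexa of hexosaminidase by 0.38. The membrane proteins Scarb2 (-0.51 ± 0.14) and Abcb9 (-0.47 ± 0.17) were the members lower at that threshold. Of 32 antioxidant genes and NRF2 targets, 5 were higher (15.6%, against 3.8% of all genes) and 0 lower at an unadjusted p under 0.05, and the median was 0.06. With 1 tumor left out, 2 to 5 were higher, the fewest without MNF 5. Without vehicle 6, 6 were lower, beside 856 of 8054 over all genes. Besides Gstk1, those higher with all 6 tumors included the glutathione transferase Gstm1 (0.49 ± 0.17) and malic enzyme Me1 (0.55 ± 0.21). The autophagy receptor Sqstm1, which is in both lists, was 0.57 ± 0.21 higher by its brightest probe, but its other probes differed by -0.01 and -0.26.

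Immediate early genes, transcription factors and signaling proteins induced within minutes of a stimulus, were mostly lower. Of 26 tested, 19 were lower, with a median of -0.18, 4 of them at an unadjusted p under 0.05 (against 4.47% of all genes), and 1 was higher. Without MNF 4, 15 of 26 were lower, with a median of -0.08, 2 of them at that threshold. The number lower at that threshold was also 2 without vehicle 4 or 5, and was 4 or 5 without MNF 6 or MNF 5. Without vehicle 6 it was 9, beside 856 of 8054 over all genes. Over all genes, the number lower at that threshold was 359 with all 6 tumors, 180 without MNF 4 and 290 without vehicle 4. It was 193 without vehicle 5, 202 without MNF 5 and 228 without MNF 6. Jun was at 10.14, 10.05 and 10.20 with MNF and at 10.51, 10.56 and 10.67 with vehicle, and vehicle 6 was the highest of all tumors. Ier2 was at 9.34, 9.59 and 9.56 with MNF and at 10.06, 10.35 and 9.74 with vehicle. Fos, the partner of Jun, differed in the opposite direction, at 9.58, 9.87 and 9.48 with MNF against 9.05, 8.60 and 9.40 with vehicle, and the groups of all 3 genes did not overlap.

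Genes of O-glycosylation and of the matrix varied gene by gene. Of 7 tested O-glycosylation genes (21 listed), Galnt3 and Galnt2 (28.6%) were lower at an unadjusted p under 0.05, against 4.47% of all genes. The median was -0.14. Galnt2, from the same enzyme family as Galnt3, was at 9.28, 9.09 and 9.17 with MNF and at 9.54, 9.66 and 9.40 with vehicle. Of 33 matrix genes, 2 were higher and 2 lower at that threshold, near the shares over all genes. Without vehicle 4 none was higher and 7 were lower, and without vehicle 6, 8 were higher and 3 lower. Over all genes, 202 of 8222 were higher and 290 lower at that threshold without vehicle 4. Without vehicle 6, 797 of 8054 were higher and 856 lower. Col8a1, a short-chain collagen, was -0.80 ± 0.21 lower without overlap, and osteopontin (Spp1) differed by -0.56 ± 0.23. Fbln5, an elastic fiber protein, differed by 1.23 ± 0.49 but overlapped, as vehicle 6 (10.63) lay within the MNF range of 10.32 to 10.90. Among 20 metalloproteinases and inhibitors 1 passed that threshold, also near the share over all genes, which was Mmp16 at 0.50 ± 0.21. Mmp14, a membrane-bound protease that cleaves collagen, was -0.47 ± 0.24 with overlap.

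Of the 16 genes taken from the study's own text and plots, 14 have a named probe and 12 were tested, so a count over them is not independent evidence. With an unadjusted p under 0.05, Casp4 and Casp12 were higher and Galnt3, Cdkn3, Ccna2 and Bub1b were lower. The inflammatory caspase Casp4 was at 10.05, 9.90 and 10.25 with MNF and at 9.02, 8.51 and 9.95 with vehicle, and Casp12, of the same family, differed by 0.78 ± 0.25. Both overlapped because of vehicle 6. Casp1 differed by 0.64 ± 0.28 and the oligodendrocyte lineage factor Olig1 by -0.66 ± 0.31. Sox4, a progenitor factor, was -0.31 ± 0.15, and Mmp11, a stromal protease, was -0.42 ± 0.33. These values moved with single tumors. Casp4 differed by 0.58 without vehicle 5 and by 1.30 without vehicle 6, and Casp1 by 0.34 without MNF 6 and by 0.99 without MNF 5. Olig1 was at -1.01 without vehicle 5 and -0.37 without vehicle 6, Sox4 at -0.43 without vehicle 4 and -0.19 without vehicle 6, and Mmp11 at -0.78 without vehicle 4 and -0.024 without vehicle 5. The cannabinoid receptors Cnr1 and Cnr2 were detected in no tumor, and the signal of their probes was not distinguished from background. In a list of G protein, cyclic AMP and cannabinoid signaling, 23 genes were tested, 10 higher and 13 lower, with a median of -0.04. At an unadjusted p under 0.05, 0 were higher and 1 (4.35%) lower, near the 4.47% of all genes that were lower.

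Housekeeping groups showed small differences. Cytosolic ribosomal proteins had a median of -0.06 (57 tested), mitochondrial ribosomal proteins -0.08 (59) and proteasome subunits -0.01 (38). The respiratory chain had a median of 0.04 (55) and cholesterol synthesis 0.03 (19). Of 42 splicing factors, 3 (7.14%) were higher and 6 (14.3%) lower at an unadjusted p under 0.05, against 3.8% and 4.47% of all genes. With 1 tumor left out, the number lower at that threshold was 1 without vehicle 5 and 10 without vehicle 6. Over all genes, 193 of 8098 were lower at it without vehicle 5, and 856 of 8054 without vehicle 6. Snrpn, a core protein of spliceosomal particles that is expressed mainly in neural tissue, was at 11.47, 11.58 and 11.55 with MNF and at 11.09, 11.16 and 11.09 with vehicle, whereas Lsm3 differed by -0.47 ± 0.13. DNA repair genes (30 tested) had a median of -0.04, and p53 targets (9 tested) -0.07 with none at an unadjusted p under 0.05.

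Cell type markers varied widely between tumors. Skeletal muscle markers (6 tested) had a median difference of 1.60, and 0.90 without vehicle 4, when 14 could be tested. A joint list of glycolysis and hypoxia genes had a median of 0.05 over 26 genes. This became 0.21 without vehicle 4, -0.16 without vehicle 6, -0.13 without MNF 5 and -0.06 without vehicle 5. Its members Pkm and Pfkm, enzymes of glycolysis with high levels in muscle, were highest in MNF 5 at 10.09 and 10.08, the tumor with the highest Acta1. Vehicle 4, almost without muscle RNA, had the highest mean of this joint list, at 11.52, against 11.51 in MNF 5 and 10.87 to 11.06 in the other tumors. The part of muscle RNA in these values was not tested. All 6 tested astrocyte markers were higher with MNF, with a median of 0.46. They include S100b, given above among the markers of C6 cells, so they do not mark only cells other than the glioma. But their mean level was 10.58 in vehicle 4 and 11.35 to 11.76 elsewhere. Without vehicle 4, when 7 could be tested, the median was 0.02. The endothelial markers (4 tested, median 0.29) likewise had a median of -0.10 without vehicle 4, when 5 could be tested. Of 14 macrophage markers with a probe, 3 were detected on all arrays and 9 on none, Ptprc and Aif1 among them, and the summed signal was 2487 to 3458 with MNF and 3002 to 3729 with vehicle. Of 14 lymphocyte and 12 neutrophil markers with a probe, 12 and 10 were detected in no tumor. These immune markers show little host leukocyte signal on rat probes, and mouse RNA was not measured separately.

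Some probes were detected in all tumors of 1 group and in none of the other. There were 18 such probes for MNF and 17 for vehicle, all with low signals of 146 to 307 in the group that showed them and 103 to 171 in the other. They were not tested. Sumo3, a small protein attached to other proteins, was at 7.68, 7.52 and 8.07 with MNF and at 6.95, 6.81 and 7.15 with vehicle. Mmp12, the macrophage elastase, was at 7.01, 7.13 and 6.75 with MNF and at 7.75, 8.02 and 7.23 with vehicle. Cdc25b, a phosphatase that activates CDKs, was also detected with vehicle and not with MNF.

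Of the 147 genes that passed an adjusted p of 0.05 without vehicle 6, 92 had an unadjusted p under 0.05 with all 6 tumors, against 8.27% of all genes. The fits share every tumor but vehicle 6, so this overlap is a description and not independent evidence. The smallest p values belonged to Nppb (-2.88) and Gpr37l1 (2.13), an orphan receptor of glia, followed among named genes by Bcas1 (1.66), Cd93 (-1.32), Fbln5 (1.90) and Fxyd1, which were picked for this list after their values were seen. Kif23 and Kif20a were also among them, at -0.88 and -0.87.

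The effect of MNF was set against that in the first cohort, whose 6 tumors are separate samples. Over 7620 genes tested in both, 0 differences between the cohorts passed an adjusted p of 0.05 (limma interaction, smallest adjusted p = 0.529), and 711 (9.33%) had an unadjusted p under 0.05, with the effect of MNF higher in cohort 2 for 5.2% of all genes and lower for 4.13%. Without vehicle 6, 50 passed the adjusted threshold. The groups were separate in opposite directions in the 2 cohorts for 77 genes (1.01%), and in the same direction for 31 higher (0.407%) and 49 lower (0.643%). In the joint fit, mitosis genes were lower with MNF in both cohorts, with 33 of 38 lower in cohort 1 and medians of -0.30 in cohort 2 and -0.17 in cohort 1, and 0 of the 38 differed between cohorts at an unadjusted p under 0.05. DNA replication genes had medians of -0.25 and -0.04, and ER chaperones 0.23 and 0.02, with 4 of 28 ER genes higher in cohort 2 at an unadjusted p under 0.05 for the difference. Immediate early genes had medians of opposite sign, -0.18 in cohort 2 and 0.28 in cohort 1, where 24 of 26 were higher. The difference had an unadjusted p under 0.05 for 8 of these 26 genes, all lower in cohort 2. Cytosolic ribosomal proteins had -0.07 and 0.28, and 11 of 57 differed at that threshold. Creld2, the ER gene with the smallest p in cohort 2, was at -0.10 in cohort 1, whereas Hspa5 was at 0.35 there and Cdkn3 at -0.43.

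**Figure D5:**
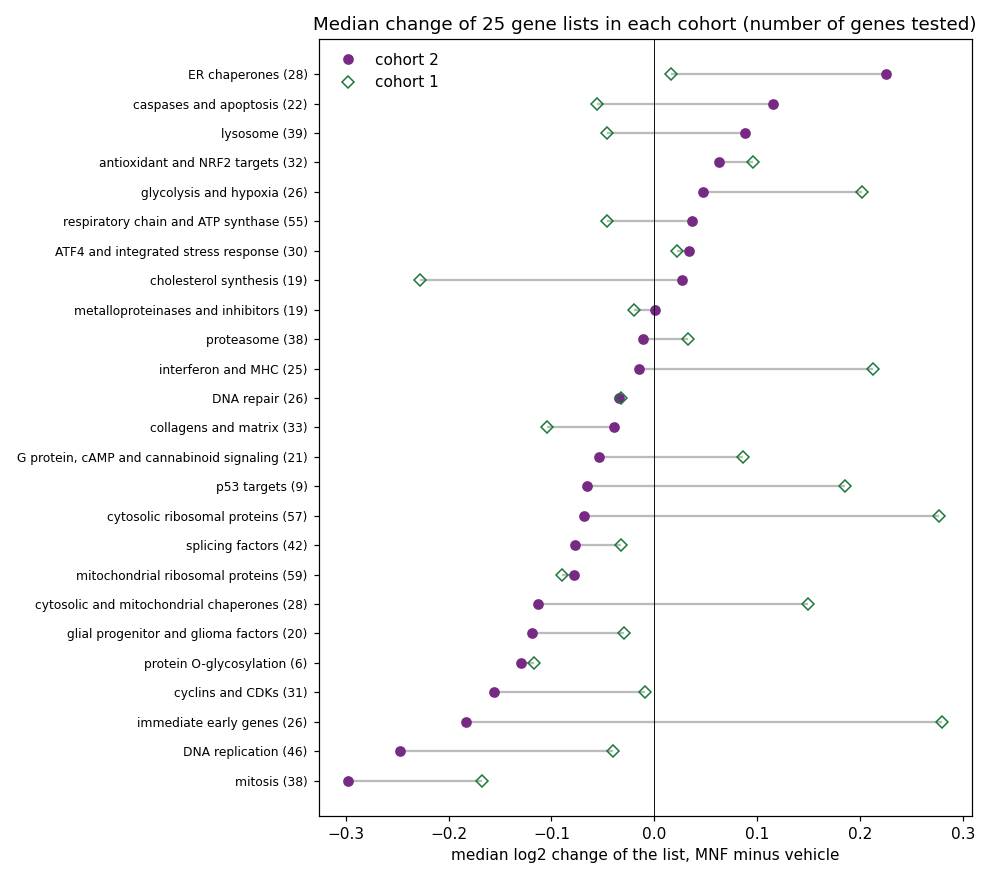
Median log2 difference between MNF and vehicle tumors for 25 gene lists in cohort 2 (filled circles) and cohort 1 (open diamonds), from the fit over 12 arrays, with the number of genes tested in parentheses. Mitosis genes had the lowest median in cohort 2 (-0.30) and were also below 0 in cohort 1, and immediate early genes lay on opposite sides of 0.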

How the data were processed

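RatRef-12 arrays (Illumina) were used for the 6 tumors of cohort 2. Per the submitters' processing notes, GenomeStudio 1.6.0 was used. The authors deposited unnormalized values for 22517 probes, the intensity of each probe with the p-value of its detection. They also deposited a processed Z score for 11080 probes, used here only as an alternative. Of all probes, 13259 carry 1 gene symbol in the platform annotation, 0 several, and 9258 are unnamed here. All columns were assigned to a sample.

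Probes with a detection p under 0.02 on all 6 arrays were kept (8090). The log2 intensity was centred on each array's mean, divided by its SD and rescaled to the mean SD (1.71) and mean level (9.54), after the Z-normalization of the study's methods. Each gene took its brightest probe. Groups were compared with limma 3.58.1 in R 4.3.3 (lmFit, eBayes, Benjamini-Hochberg). The thresholds of the methods were read as a Z ratio of 1.5, an unadjusted p of 0.05 and an adjusted p of 0.3. The p was that of limma and not of the study's own test. The difference between cohorts is the interaction in a fit of 4 groups over 12 arrays. Genes named are those from the study's text, the 12 with the smallest p in each direction, up to 4 per gene list, up to 3 per marker list by level, up to 5 per group detected in 1 group only, and 5 per direction by interaction p. Further members of a list that passed an unadjusted p of 0.05, and genes named without vehicle 6, were added after their values were seen. The members, the 25 gene lists and 13 marker lists were chosen with earlier results of these data known. The comparison was tested on simulated data of 8028 genes. After adjustment it recovered 65 of the 100 genes given a log2 change of 1, and 9 of the 100 given 0.5, beside 3 false calls. That test was written after the first fits to the deposited data. Its noise was normal, independent between genes and of equal SD in both groups, whereas the spread of the tumors was larger in the vehicle group. Its counts are therefore not the power or error rate of the comparison of these tumors. Alternatives covered normalization, filters, an offset, probes, array weights, a replicate block, 12 arrays and each tumor left out.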

Additional observations from a re-analysis of the deposited data

Results flagged for a closer look

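In 10 of the named genes, all 3 MNF tumors lay on one side of all 3 vehicle tumors in cohort 2 and on the other side in cohort 1. Such opposite separation occurred for 77 of the 7620 genes tested in both cohorts (1.01%). The difference between the cohorts was tested by limma's interaction, and none of the 10 passed after adjustment (adjusted p = 0.529 for each). The log2 effect of MNF was higher in cohort 2 by 1.66 for Fxyd1, by 1.49 for Tmem50b, by 0.93 for the sterol reductase Dhcr7, by 0.90 for the lactate dehydrogenase subunit Ldhb, by 0.66 for the helicase Smarcal1, by 0.64 for squalene synthase Fdft1 and by 0.56 for the mitochondrial ribosomal protein Mrpl36. The difference, cohort 2 minus cohort 1, was -0.72 for the complement regulator Cd55, -0.67 for Hspe1 and -0.57 for the ribosomal protein Rpl24. Some of these genes, among them Fxyd1, Tmem50b, Smarcal1, Cd55 and Hspe1, were named for a small p of this same difference, so the count of 10 is a description and not evidence. Groups of 3 tumors were not screened for single outlying values.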

How the results depend on the processing

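The count of genes at an adjusted p under 0.05 stayed 0 under all 14 alternatives that used every tumor, where the smallest adjusted p was 0.114 (array quality weights), and ranged from 0 to 147 with 1 tumor left out. Leaving out 1 tumor gave 166 to 797 genes higher and 180 to 856 lower at an unadjusted p under 0.05, 725 to 1458 and 847 to 1669 genes with separate groups, 0 to 778 at the thresholds of the methods, and 48.4% to 73.9% of genes with a larger SD in vehicle. Besides vehicle 6, the counts at an unadjusted p moved by over 1.5 times without MNF 4 (166 higher, 180 lower), vehicle 5 (190 and 193), vehicle 4 (202 higher), MNF 5 (202 lower) and MNF 6 (228 lower). In each of these ranges but the last the highest count came from leaving out vehicle 6. Differences between cohorts numbered 0 to 50 at an adjusted p and 461 to 1413 at an unadjusted p, again highest without vehicle 6, and 1055 without MNF replicate 2 of cohort 1. With array quality weights, 726 genes passed the thresholds of the methods, and 669 were higher and 733 lower at an unadjusted p. Without normalization these were 72 and 222, 75.5% lower against 54.1% in the comparison as reported, with 73 genes separate and higher and 43.1% with a larger SD in vehicle. With no filter, 610 were higher and 897 lower, and 1216 and 1488 were separate. The causes were not tested.

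The deviations of same-numbered tumors of the 2 groups correlated at r = -0.0836, -0.0128 and 0.106 for numbers 4, 5 and 6. These values lay within the range for tumors of different numbers, -0.110 to 0.123. With so few tumors per group, they cannot decide whether the numbers pair the samples. With the replicate number as a block, 334 genes were higher and 341 lower at an unadjusted p, with 0 after adjustment, and 734 differed between cohorts. The median difference of the mitosis, replication, cyclin and ER chaperone lists kept its sign in every alternative. For the mitosis list it lay between -0.46 and -0.20, for replication between -0.40 and -0.14, and for ER chaperones between 0.12 and 0.26. Medians near 0 changed sign more easily, as the glycolysis and hypoxia list did under 5 alternatives and the interferon and MHC list also under 5.

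Of the named genes, 12 changed sign, of which 9 are cell type markers, 1 is Dusp3 and the others are Cnr1 and Cnr2, which were detected in no tumor. The fibroblast marker S100a4 (-0.013) was at 0.016 with quantile normalization and at 0.016 with neqc. With 1 tumor left out, the log2 difference of S100a4 was -0.11 to 0.058, of Nefm -0.024 to 0.13, of Hba-a1 -0.075 to 0.85, of Cd68 -0.21 to 0.23, of Gja1 -0.074 to 0.42, of Spi1 -0.31 to 0.24, of Clu -0.048 to 0.96, of Ramp2 -0.11 to 1.17, of Pdgfra -0.012 to 0.24 of Dusp3 -0.0056 to 0.275, of Cnr1 -0.12 to 0.030 and of Cnr2 -0.069 to 0.036. An Illumina signal near background, as for genes detected in 1 group only, gives no reliable order of levels.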
